A study of Mus musculus with 12 samples.

Results

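The enterocyte is the absorptive cell that covers the villi of the small intestine, and Cdx1, Cdx2, Hnf4a, Hnf4g, Klf4, Klf5 and Elf3 encode transcription factors known for setting up and keeping its identity. The 7 genes were taken by their symbols from expression tables that hold 19012 gene symbols, and each was found there with a single transcript. RNA-seq of poly(A) RNA from mouse intestinal epithelium gave 12 libraries of 3 tissues and 3 origins. Organoids, which are epithelial cultures grown from crypts, had been kept for 12 weeks and gave 1 library each for duodenum, jejunum and ileum. Freshly isolated villi also gave 1 library for each origin, and freshly isolated crypts gave 2. The sources used here do not give strain, genotype, sex, age or the number of animals. Libraries of 1 group or of different groups may therefore share an animal, and p-values measure only the spread between these samples. Organoids and villi have no replicates within an origin, so their 3 origins serve as replicates and n = 3 counts origins.

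As background, the caudal-type homeodomain proteins Cdx1 and Cdx2 fix the intestinal fate of the gut lining, and Cdx2 holds that fate in the adult mouse. The nuclear receptors Hnf4a and Hnf4g recognise the same DNA element, overlap in function in mouse intestine and act on genes of fat absorption and of the brush border. Klf4 and Klf5 are zinc finger proteins that bind similar GC-rich elements. Klf4 is known from cells that have left the cell cycle and, in mouse colon, from goblet cells, whereas Klf5 is known from dividing crypt cells. Elf3 is an Ets factor of epithelia whose loss in mice impairs the maturation of enterocytes and goblet cells. Stem cells and Paneth cells sit in the crypts, and cells mature as they move onto the villus.

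The deposited transcripts are given on mm9, and the sources used here do not say if a start counts from 0 or 1. Cdx1 lay on chr18:61178518-61195852 and Cdx2 on chr5:148112475-148118824, both on the minus strand. Hnf4a lay on chr2:163372923-163398642 and Hnf4g on chr3:3508101-3657373, both on the plus strand. Klf4 lay on the minus strand of chr4:55540140-55545337 and Klf5 on the plus strand of chr14:99697909-99712627. Elf3 lay on the minus strand of chr1:137150155-137155014. The exons behind each value added up to 1747 bases for Cdx1, 2145 for Cdx2, 4358 for Hnf4a, 1682 for Hnf4g, 2903 for Klf4, 1725 for Klf5 and 1901 for Elf3. Elf3 shares 162 exon bases with Gm26642, an antisense transcript on the opposite strand, and the sources used here do not say if counting used strand. The antisense transcript Hnf4aos shares 0 exon bases with Hnf4a.

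Expression is given as RPKM, reads divided by exon length and by the total reads of the library, which sets genes of unequal length on 1 scale. The libraries held between 5268480 and 18591819 reads by the scale of the deposited values. Reads in genes were 58.8% to 75.0% of the total in organoids, 67.8% to 75.8% in villi and 44.3% to 67.6% in crypts, so villi and crypts did not overlap. Within crypts the share was 44.3% to 52.3% in replicate 1 and 60.1% to 67.6% in replicate 2. Its part in the differences between tissues was not tested. TMM factors, which scale by reads in genes, are given where they change a call or a sign of the 7 factors. Counts in gene lists are without TMM factors unless stated, and some of these counts change under them. All 7 genes were well covered, since the lowest count, 160 reads, was that of Klf4 in duodenal organoids. In every library each of the 7 was above at least 67.4% of all symbols. Tissue labels were checked against cell type markers. The summed RPKM of 17 genes of mature enterocytes was 5594 to 8029 in organoids, 51944 to 102108 in villi and 993 to 24993 in crypts. The summed RPKM of 12 stem cell genes was 625 to 796 in organoids, 21.7 to 45.6 in villi and 145 to 1269 in crypts. The summed RPKM of 12 smooth muscle and stromal genes was 5.28 to 9.03 in organoids, 28.3 to 76.4 in villi and 1.71 to 13.4 in crypts. The summed RPKM of 12 lymphocyte and myeloid genes was 9.49 to 20.5 in organoids, 59.7 to 188 in villi and 15.2 to 81.1 in crypts. The smooth muscle gene Des was listed at 0 in 2 of 3 organoid, 0 of 3 villus and 4 of 6 crypt libraries, and the leukocyte gene Ptprc in 1 of 3, 0 of 3 and 3 of 6.

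Promoters are shown for the Hnf4a gene, which is known to start from alternative promoters, and for Klf4, whose level varied most of the 7. They were taken from RefSeq on GRCm38.p6, from 250 bases before the start site to 50 after it, and capitals mark motif matches found on either strand. Hnf4a has 2 listed start sites that lie 40298 bases apart on the plus strand. The deposited Hnf4a transcript begins 33 bases from the downstream site, by the GENCODE annotation of the same build, and 40331 bases from the upstream site. Transcripts from both sites are known to share downstream exons, so the Hnf4a values do not tell the promoters apart.
Hnf4a, downstream start site, chr2:163546905-163547204, plus strand: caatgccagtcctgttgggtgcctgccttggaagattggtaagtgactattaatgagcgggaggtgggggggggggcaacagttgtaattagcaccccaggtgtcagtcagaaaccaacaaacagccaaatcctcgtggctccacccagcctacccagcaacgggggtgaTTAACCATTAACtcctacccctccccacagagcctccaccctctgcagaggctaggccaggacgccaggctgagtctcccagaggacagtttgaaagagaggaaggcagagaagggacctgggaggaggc
Hnf4a, upstream start site, chr2:163506607-163506906, plus strand: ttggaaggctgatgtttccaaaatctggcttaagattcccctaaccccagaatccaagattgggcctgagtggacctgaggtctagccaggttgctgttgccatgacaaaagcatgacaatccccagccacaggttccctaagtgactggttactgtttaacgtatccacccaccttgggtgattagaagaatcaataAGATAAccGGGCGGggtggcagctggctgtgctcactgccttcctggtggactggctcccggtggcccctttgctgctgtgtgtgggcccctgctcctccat
Klf4, chr4:55532426-55532725, minus strand: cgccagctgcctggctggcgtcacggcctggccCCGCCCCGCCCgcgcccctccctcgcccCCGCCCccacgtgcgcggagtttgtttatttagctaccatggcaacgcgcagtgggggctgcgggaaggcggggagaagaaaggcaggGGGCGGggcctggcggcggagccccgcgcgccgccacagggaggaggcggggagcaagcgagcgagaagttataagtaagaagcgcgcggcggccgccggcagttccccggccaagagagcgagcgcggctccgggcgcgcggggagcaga
The downstream Hnf4a promoter holds TTAACCATTAAC, a match to the HNF1 element on the opposite strand, at bases -80 to -69 from the start site. This element was found in 0.141% of 32544 mouse promoters of that length, and its spelling was widened after the sequence had been seen. The upstream Hnf4a promoter holds the GATA element AGATAA, found in 11.2% of promoters, and the KLF element GGGCGG. The KLF elements searched, GGGCGG and GGGTGTGG, were found in 38.0% of promoters. The Klf4 promoter, of which 74.3% is G or C, holds 4 matches to GGGCGG, and the first pair of them overlaps by 1 base. Neither the Cdx2 nor the Elf3 promoter held a match to these elements. Nor did they hold the HNF4 elements CAAAGTCCA and CAAAGTTCA and CAAAGGTCA (in 1.34% of promoters), the CDX elements TTTATGG and TTTATTG and TTTACGG (8.03%), the ETS elements ACCGGAAG and GCGGAAG (7.73%) or TATAAA (13.6%). No matches are given for Cdx1, Hnf4g and Klf5, whose own promoters were not examined. A match describes letters and does not show that a factor binds.

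Levels differed between the 7 genes and, for most of them, between tissues. Elf3 and Klf5 had the highest levels, with averages of 407 ± 80.3 and 350.1 ± 98.7 RPKM in crypts (SD, n = 6), and Klf4 had the lowest, with 4.82 ± 0.372 RPKM in organoids (SD, n = 3). From the lowest to the highest library the level differed by a factor of 22.6 for Klf4, 7.66 for Hnf4a, 7.58 for Klf5, 7.42 for Elf3, 5.79 for Cdx1, 4.54 for Cdx2 and 3.42 for Hnf4g.

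**Figure D1:**
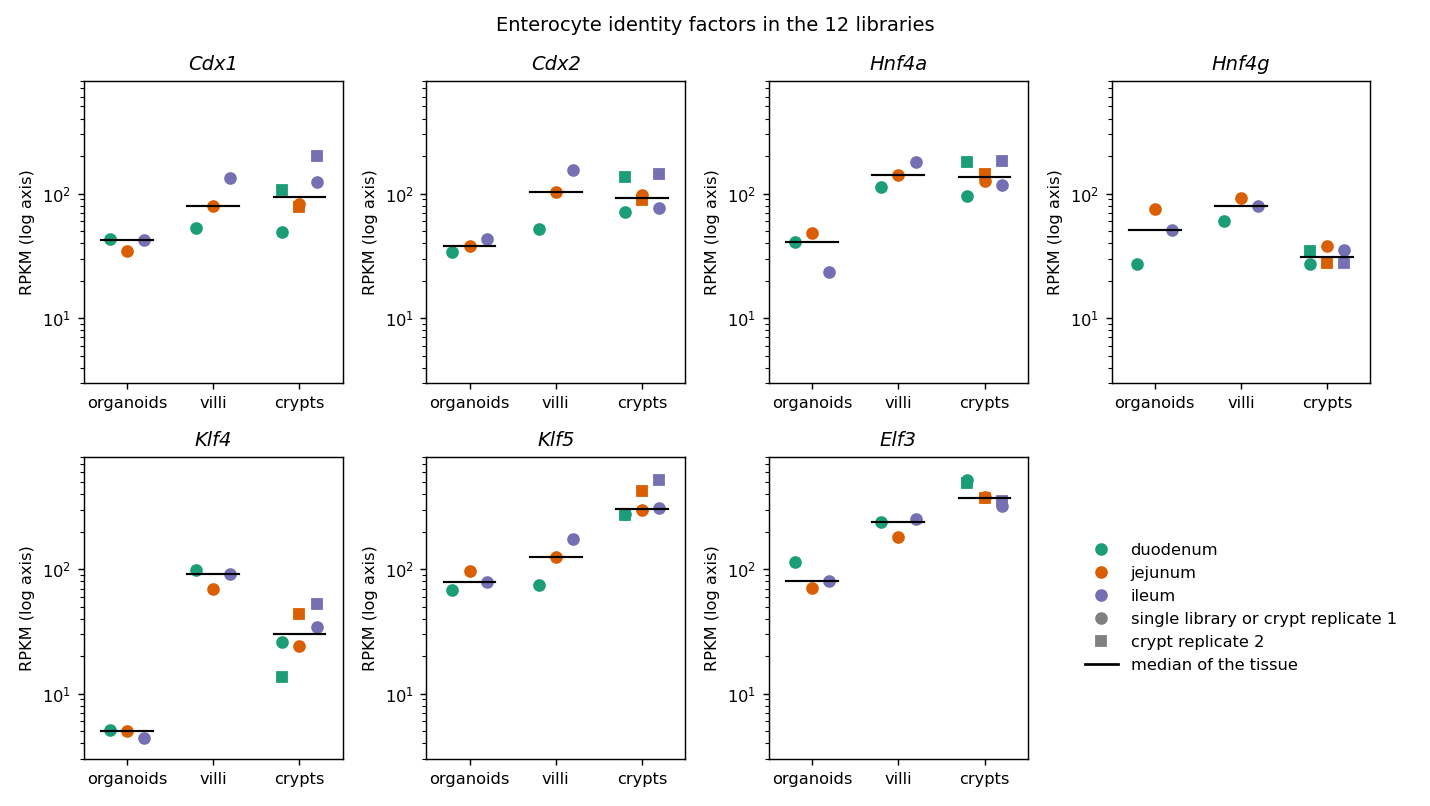
RPKM of the 7 genes on a log axis in organoids, villi and crypts. Each point is 1 library, coloured by origin, squares are crypt replicate 2 and the bar is the median of the tissue. Klf4 separates all 3 tissues, with organoids at 5.09 RPKM or less, while villi and crypts overlap for Cdx1, Cdx2 and Hnf4a.

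Cdx1 and Cdx2 were lower in organoids, and their levels in villi and crypts overlapped. In duodenum, jejunum and ileum Cdx1 stood at 43.3, 34.3 and 42.2 RPKM in organoids and at 53.0, 79.3 and 134 RPKM in villi. Crypt libraries ranged between 48.8 and 199 RPKM around a median of 94.2. Every organoid library was below every villus and crypt library for Cdx1. Its average was 39.9 ± 4.88 RPKM in organoids (SD, n = 3), 88.9 ± 41.5 in villi (SD, n = 3) and 106 ± 52.1 in crypts (SD, n = 6), and the last pair of averages differed by less than either spread. Cdx2, the partner gene, was measured at 33.9, 38.1 and 43.3 RPKM in organoids and at 51.7, 103 and 154 RPKM in villi of the same origins. Its crypt levels lay between 70.5 and 145 RPKM around a median of 92.9. Again no organoid library reached a villus or crypt library. The Cdx2 average was 38.4 ± 4.68 RPKM in organoids (SD, n = 3), 103 ± 51.2 in villi (SD, n = 3) and 102 ± 30.8 in crypts (SD, n = 6), so villi and crypts could not be ordered.

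Hnf4a was low in organoids, whereas its partner Hnf4g was highest in villi. Hnf4a stood at 40.8, 48.6 and 23.6 RPKM in organoids of duodenum, jejunum and ileum and at 112, 141 and 181 RPKM in villi. In crypts it ranged between 94.8 and 181 RPKM around a median of 135. The organoid libraries lay below all others, and villi and crypts covered the same range, with averages of 37.7 ± 12.8 RPKM in organoids (SD, n = 3), 145 ± 34.4 in villi (SD, n = 3) and 140.3 ± 34.7 in crypts (SD, n = 6). Hnf4g was found at 27.4, 75.4 and 51.2 RPKM in organoids and at 60.1, 92.1 and 79.6 RPKM in villi. The 6 crypt libraries were close together, between 27.0 and 37.8 RPKM around a median of 31.2. All villus libraries were above all crypt libraries, and organoids overlapped with both, the duodenal organoids at the crypt level and the other two above it. The Hnf4g average was 51.3 ± 24.0 RPKM in organoids (SD, n = 3), 77.3 ± 16.1 in villi (SD, n = 3) and 31.7 ± 4.67 in crypts (SD, n = 6), and the organoid libraries spread over 27.4 to 75.4 RPKM.

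Klf4 and Klf5 took opposite orders in villi and crypts. Klf4 was near 5 RPKM in organoids, at 5.09, 4.98 and 4.40 RPKM for duodenum, jejunum and ileum, and at 99.3, 69.5 and 92.3 RPKM in villi. In crypts Klf4 lay between 13.6 and 52.6 RPKM around a median of 30.1. The 3 tissues did not overlap, and the averages were 4.82 ± 0.372 RPKM in organoids (SD, n = 3), 87.0 ± 15.5 in villi (SD, n = 3) and 32.4 ± 14.2 in crypts (SD, n = 6). Klf5 was measured at 68.3, 97.0 and 78.3 RPKM in organoids and at 75.4, 125 and 174 RPKM in villi. Crypts held more of it, between 272 and 518 RPKM around a median of 305. Every crypt library was above every other library for Klf5, and the averages were 81.2 ± 14.6 RPKM in organoids (SD, n = 3), 125 ± 49.1 in villi (SD, n = 3) and 350.1 ± 98.7 in crypts (SD, n = 6), with organoids and villi overlapping.

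Elf3 fell into 3 separate ranges. It stood at 114, 70.3 and 80.8 RPKM in organoids of duodenum, jejunum and ileum and at 239, 181 and 254 RPKM in villi. Crypt libraries ranged between 322 and 522 RPKM around a median of 375. The averages were 88.4 ± 22.9 RPKM in organoids (SD, n = 3), 225 ± 38.6 in villi (SD, n = 3) and 407 ± 80.3 in crypts (SD, n = 6), and no library of 1 tissue reached into the range of another. Villi and crypts alone did not overlap for 48.2% of all genes tested. The share of genes with 3 separate ranges, as for Elf3 and Klf4, was not computed.

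Between villi and crypts 4 factors differed. Hnf4g and Klf4 were higher in villi, Klf5 and Elf3 were lower, and Cdx1, Cdx2 and Hnf4a did not pass the test. Differences are log2 fold changes of RPKM + 1 from limma, fitted over all 12 libraries with tissue and origin as terms and adjusted by Benjamini-Hochberg over 11825 genes, with 0.05 as the threshold. Hnf4g differed by 1.25 ± 0.27 (SE, adjusted p = 0.00192) and Klf4 by 1.51 ± 0.33 (SE, adjusted p = 0.00227), each higher in 3 of 3 villus libraries than in any crypt library. Klf5 differed by -1.52 ± 0.30 (SE, adjusted p = 0.001) and Elf3 by -0.85 ± 0.28 (SE, adjusted p = 0.0210), each lower in 3 of 3 villus libraries than in any crypt library. So 4 of 7 passed, where 52.8% of all genes tested did, 20.3% higher and 32.5% lower. The same 4 genes did not overlap between the tissues, as did 48.2% of all genes. With RPKM scaled by TMM factors the split over all genes was 29.3% higher and 27.1% lower.

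Cdx1 differed between villi and crypts by -0.22 ± 0.32 (SE, adjusted p = 0.578), Cdx2 by -0.07 ± 0.33 (SE, adjusted p = 0.876) and Hnf4a by 0.05 ± 0.32 (SE, adjusted p = 0.901). The sign of these 3 turned with the scaling, to 0.09 for Cdx1 and 0.24 for Cdx2 under TMM factors and to -0.24 for Hnf4a under quantile normalisation. The median of all genes moved from -0.19 to -0.02 under TMM factors. In bulk libraries fewer cells of a type and less RNA per cell cannot be told apart. The Elf3 call was lost under TMM factors (-0.53, limma adjusted p = 0.0987) and without crypt jejunum replicate 1 (limma adjusted p = 0.0521), villi duodenum (0.0904) or villi jejunum (0.110). Smooth muscle and stromal genes moved with the villi, 8 of 8 tested being higher there, and so did 7 of 10 tested lymphocyte and myeloid genes, while 2 of these 10 were lower. A gene needed enough reads in only 3 libraries, the number of villus libraries, so these counts are partly set by that filter. The filter of the crypt comparison kept only 2 of 12 smooth muscle and stromal genes and 3 of 12 lymphocyte and myeloid genes. Cd68, a macrophage gene of that list, ranged between 0.530 and 1.88 RPKM in villi and between 6.43 and 16.0 RPKM in crypts. Their part in the Hnf4g and Klf4 differences was not tested.

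**Figure D2:**
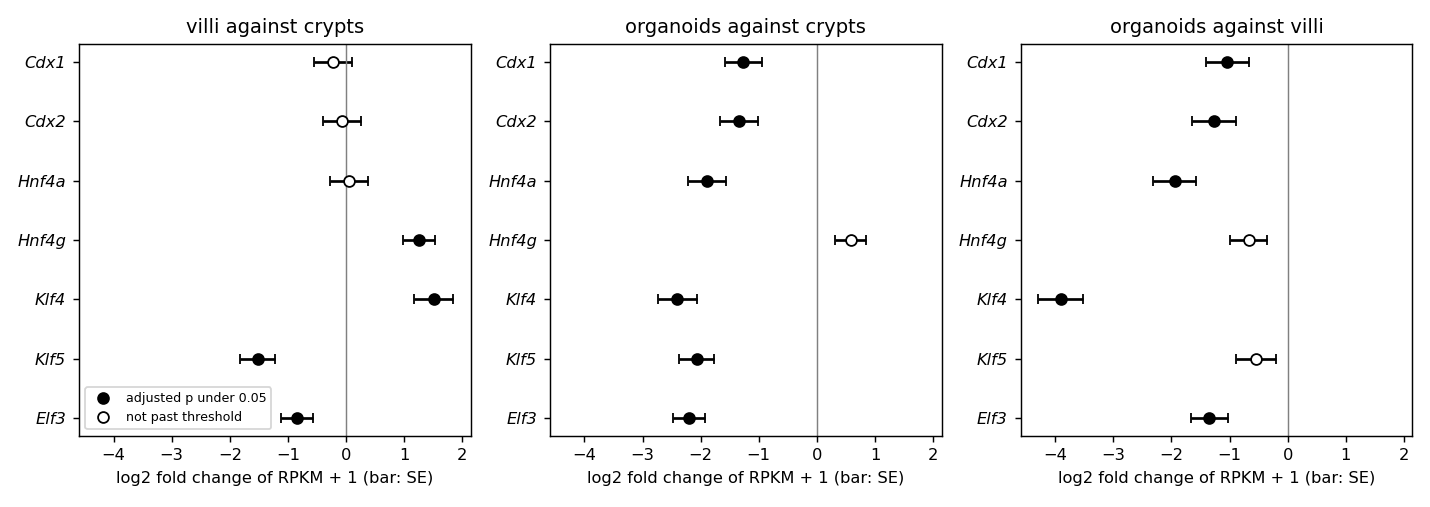
Log2 fold change of RPKM + 1 (x axis) of the 7 genes for villi against crypts, organoids against crypts and organoids against villi. Points are limma estimates, bars are standard errors and filled points have an adjusted p under 0.05. Klf4 is at 1.51, -2.40 and -3.90 in the 3 panels, and Hnf4g is the only gene to the right of 0 for organoids against crypts.

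Organoids were set against crypts, from which they are grown. Of the 7 factors 6 were lower in organoids and none was higher, where 47.4% of all genes tested were called (55.8% with the replicate block), 24% lower and 23.3% higher. Klf4 differed by -2.40 ± 0.33 on the log2 scale (SE, adjusted p = 0.000134 in limma), Elf3 of -2.20 ± 0.28 (SE, adjusted p = 6.63e-05) and Klf5 of -2.07 ± 0.30 (SE, adjusted p = 0.000166). For Hnf4a it was -1.89 ± 0.32 (SE, adjusted p = 0.000501), for Cdx2 -1.34 ± 0.33 (SE, adjusted p = 0.00527) and for Cdx1 -1.26 ± 0.32 (SE, adjusted p = 0.00620). In all 6 cases 3 of 3 organoid libraries were below every crypt library, as for 21.9% of all genes. Hnf4g did not pass, at 0.58 ± 0.27 (SE, adjusted p = 0.0947), with 2 of 3 organoid libraries above every crypt library.

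The Cdx1 difference between organoids and crypts missed the threshold without the ileal organoids (-0.96, limma adjusted p = 0.0769). That of Hnf4g passed it without crypt duodenum replicate 2 (0.69, limma adjusted p = 0.0346) and without the duodenal organoids (0.89, limma adjusted p = 0.0356). By origin, Hnf4g in organoids minus the crypt mean was -0.15 in duodenum, 1.19 in jejunum and 0.70 in ileum on the log2 scale. The same difference for Cdx1 was -0.72, -1.20 and -1.87, and for Hnf4a it was -1.65, -1.45 and -2.57. Each of these single origins rests on 1 organoid library. Of 17 mature enterocyte genes 4 were higher and 2 lower in organoids against crypts (6 and 5 with the block), with a median log2 fold change of -0.28. Enteroendocrine genes were higher in organoids, 9 of 12 past the test, with summed levels of 1390 to 3078 RPKM in organoids and 224 to 740 RPKM in crypts. The part of both cell types in the factor levels was not tested.

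Most factors were also lower in organoids than in villi. The largest of the 21 tissue differences of the 7 genes was that of Klf4, at -3.90 ± 0.39 on the log2 scale (SE, adjusted p = 5.38e-06 in limma). Hnf4a differed by -1.95 ± 0.37 (SE, adjusted p = 0.000593), Elf3 by -1.35 ± 0.32 (SE, adjusted p = 0.00257), Cdx2 by -1.27 ± 0.38 (SE, adjusted p = 0.0111) and Cdx1 by -1.04 ± 0.37 (SE, adjusted p = 0.0264). These 5 of 7 were lower in 3 of 3 organoid libraries than in any villus library, where 25.6% of all genes tested were called lower, 36% were called higher and 29.3% were lower without overlap. Klf5, at -0.55 ± 0.34 (SE, adjusted p = 0.183), and Hnf4g, at -0.67 ± 0.31 (SE, adjusted p = 0.0777), did not pass. With the crypt replicate number as a block in limma, Hnf4g passed (adjusted p = 0.0423) and 6 of 7 were called, with 67.2% of all genes called in either direction against 61.6% without the block.

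Several of these calls turned on single libraries or on scaling. Without the villi of jejunum or of ileum only 3 of 7 factors remained past the threshold, since Cdx1 (limma adjusted p = 0.0988 and 0.0946) and Cdx2 (0.0504 and 0.0741) missed it. Cdx1 also missed it without the organoids of jejunum (limma adjusted p = 0.0729) or ileum (0.163). Hnf4g passed without crypt duodenum replicate 2 (limma adjusted p = 0.0475), without the jejunal organoids (0.0357) and with crypt replicate 1 alone (0.0252). TMM factors brought Hnf4g to -0.98 (limma adjusted p = 0.00762) and Klf5 to -0.86 (limma adjusted p = 0.0273). The median over all genes was 0.21 for organoids against villi and 0.03 under TMM factors. Genes of other cell types moved with this comparison: 7 of 8 smooth muscle and stromal genes and 7 of 10 lymphocyte and myeloid genes were lower in organoids than in villi. Genes of both lists could enter the test through the 3 villus libraries alone. Higher in organoids were 11 of 11 cycling cell genes, 9 of 9 Paneth cell genes and 9 of 12 stem cell genes. Of 12 enteroendocrine genes 8 were higher and 2 lower. Of 17 mature enterocyte genes 1 was higher and 11 were lower, with a median log2 fold change of -3.45. The part of all these cell types in the factor levels was not tested. The comparisons of organoids with crypts and with villi share the organoid libraries.

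Within paralog pairs, the balance of Hnf4g to Hnf4a and of Klf4 to Klf5 differed between villi and crypts, and that of Cdx1 to Cdx2 did not pass the test. A ratio taken within a library does not depend on how libraries are scaled to each other, apart from the added 1 RPKM. For duodenum, jejunum and ileum the log2 ratio of Hnf4g to Hnf4a was -0.56, 0.62 and 1.09 in organoids and -0.89, -0.61 and -1.17 in villi. In crypts it lay between -2.66 and -1.70. Villi and organoids were both above every crypt library. The mean was 0.38 ± 0.85 in organoids (SD, n = 3), -0.89 ± 0.28 in villi (SD, n = 3) and -2.09 ± 0.41 in crypts (SD, n = 6). Villi exceeded crypts by 1.198 and organoids exceeded crypts by 2.47, each with an exact two-sided permutation p of 0.0119 (adjusted p = 0.0357 over 9 tests), which is the smallest that 3 against 6 libraries allow. This test treats the 6 crypt libraries as exchangeable, although their numbers pair them. The ratio was lower in replicate 2 than in replicate 1 at each origin, at -2.35 and -1.78 in duodenum, -2.33 and -1.70 in jejunum and -2.66 and -1.71 in ileum. With replicate 2 alone and with replicate 1 alone villi exceeded crypts by 1.56 and 0.84, and organoids exceeded crypts by 2.83 and 2.11. In terms of RPKM, Hnf4g was between 0.671 and 2.17 of Hnf4a in organoids, between 0.441 and 0.654 of it in villi and between 0.154 and 0.302 of it in crypts.

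**Figure D3:**
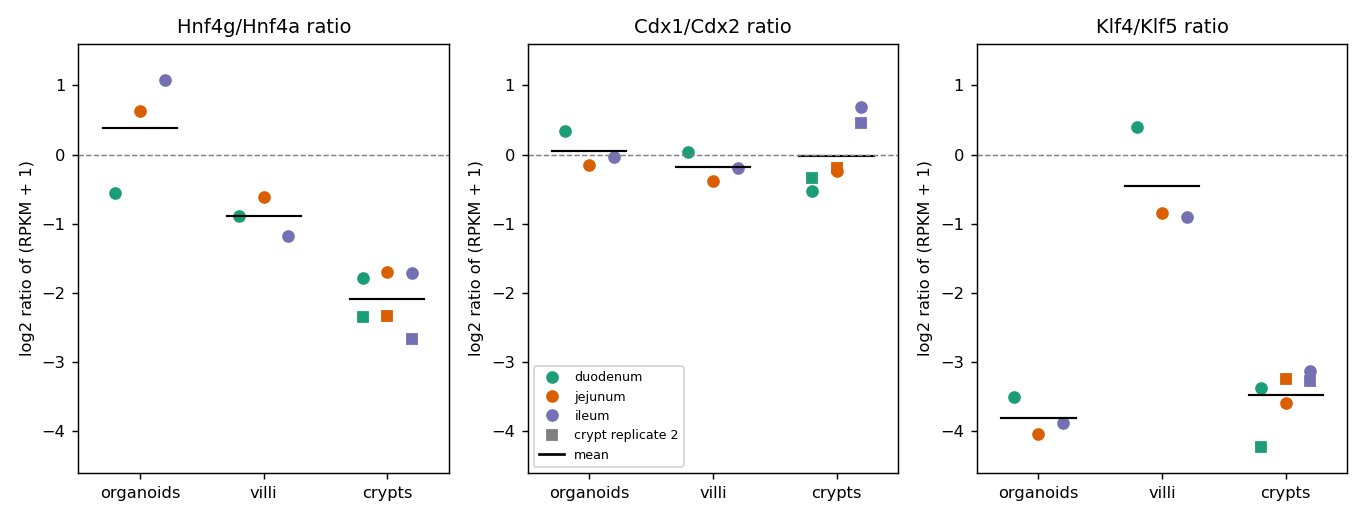
Log2 ratio of (RPKM + 1) of Hnf4g to Hnf4a, of Cdx1 to Cdx2 and of Klf4 to Klf5 (y axis) in organoids, villi and crypts. Points are libraries coloured by origin, squares are crypt replicate 2, bars are means and the dashed line marks equal levels. Villi stand above crypts in the Hnf4g to Hnf4a and Klf4 to Klf5 panels, and organoids stand above crypts only in the Hnf4g to Hnf4a panel.

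The log2 ratio of Klf4 to Klf5 was -3.51, -4.03 and -3.88 in organoids of duodenum, jejunum and ileum and 0.39, -0.84 and -0.90 in villi. In crypts it ranged between -4.23 and -3.13, so organoids lay inside the crypt range and villi above it. Duodenal villi were the only library with more Klf4 than Klf5. The mean was -3.81 ± 0.27 in organoids (SD, n = 3), -0.45 ± 0.73 in villi (SD, n = 3) and -3.47 ± 0.40 in crypts (SD, n = 6). Villi exceeded crypts by 3.02 (exact two-sided permutation p = 0.0119, adjusted p = 0.0357), and organoids differed from crypts by -0.33 (exact permutation p = 0.25, adjusted p = 0.375). Organoids differed from villi by -3.36, with the exact permutation p of 0.1 that is the smallest 3 against 3 libraries allow. No ratio passed the adjustment with crypt replicate 1 or 2 alone, where the adjusted p of the 3 differences that had passed was 0.18. Nor did any with 1 library left out, where it was 0.0536 to 0.107 by the exact permutation test, since the smallest possible p is then higher in all or some of the 9 tests adjusted together.

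The log2 ratio of Cdx1 to Cdx2 stayed near 0, at 0.05 ± 0.26 in organoids (SD, n = 3), -0.18 ± 0.21 in villi (SD, n = 3) and -0.02 ± 0.48 in crypts (SD, n = 6). The tissues differed by -0.16 for villi against crypts and 0.08 for organoids against crypts, with exact permutation p of 0.655 and 0.762. Among crypts the ratio was 0.69 and 0.45 in ileum and between -0.52 and -0.19 in duodenum and jejunum. The ileal crypt libraries did not overlap with the other crypts. In duodenum, jejunum and ileum the ratio was 0.34, -0.15 and -0.04 in organoids and 0.04, -0.38 and -0.20 in villi. Organoids and villi were thus highest in duodenum. The split by origin was seen in the crypt values only and was not tested.

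The crypt replicates differed in their levels of mature enterocyte genes, and of the 7 factors Hnf4a alone was also higher in replicate 2 at each origin. All 17 mature enterocyte genes were higher in replicate 2 than in replicate 1 at each origin, by median log2 differences of 3.38, 3.29 and 2.98 in duodenum, jejunum and ileum. Over all genes tested the medians were 0.51, -0.0047 and 0.11. Cdx2 differed by 0.92, -0.12 and 0.91, Cdx1 by 1.11, -0.07 and 0.67 and Hnf4a by 0.91, 0.20 and 0.62. Cdx1 and Cdx2 were thus higher in replicate 2 in duodenum and ileum but not in jejunum. Elf3 differed by -0.09, -0.02 and 0.14, Klf5 by -0.03, 0.49 and 0.74, Hnf4g by 0.34, -0.43 and -0.32 and Klf4 by -0.88, 0.83 and 0.60. The 10 Paneth cell genes tested went the other way, with medians of -1.97, -0.95 and -1.58. Medians of the 12 stem cell genes were -0.14, -0.81 and -1.10, and 4, 0 and 0 of these genes were higher in replicate 2. The part of these cell types in the factor levels was not tested.

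The comparisons with crypts were repeated with each crypt replicate alone. For villi against crypts the log2 fold change with replicate 1 alone and with replicate 2 alone was 1.18 and 1.32 for Hnf4g, 1.597 and 1.41 for Klf4, -1.32 and -1.72 for Klf5 and -0.84 and -0.85 for Elf3. All 4 passed in both cases, with limma adjusted p between 7.61e-05 and 0.0193. With all crypt libraries 52.8% of all genes tested were called, and the share with each replicate alone is not given here. The 3 factors that had not passed changed sign between the replicates, at 0.06 and -0.51 for Cdx1, 0.22 and -0.36 for Cdx2 and 0.34 and -0.24 for Hnf4a. For organoids against crypts the same 6 genes were lower with either replicate, from -0.98 and -1.55 for Cdx1 to -2.31 and -2.49 for Klf4. Here 47.4% of all genes were called with all crypt libraries, and again the share with each replicate alone is not given.

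**Figure D4:**
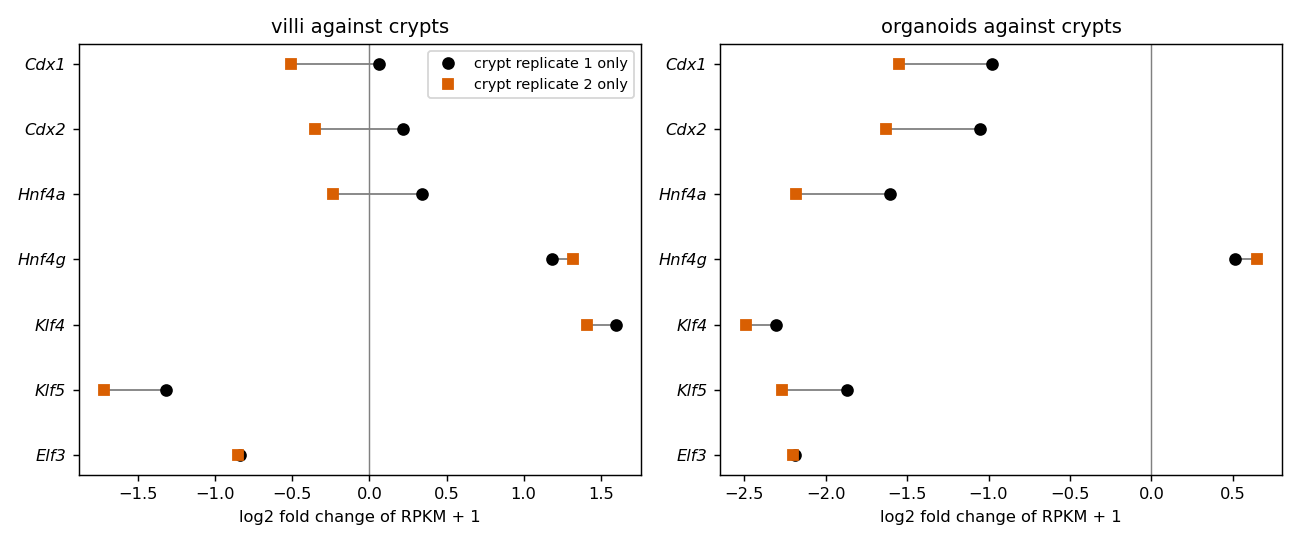
Log2 fold change of RPKM + 1 (x axis) of the 7 genes for villi against crypts and organoids against crypts, fitted with the replicate 1 crypt libraries alone (circles) or the replicate 2 crypt libraries alone (squares). Lines join both values of a gene. Cdx1, Cdx2 and Hnf4a cross 0 for villi against crypts, and Elf3 hardly moves (-0.84 and -0.85).

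Along the length of the intestine none of the 7 factors passed the test. For ileum against duodenum over all tissues 0 of 7 passed in limma, where 0.609% of all genes did (2.55% with the replicate block), and 0 passed in limma-voom on reads. An unadjusted p under 0.05 was found for 1 of 7 and for 8.36% of all genes, and with the block for 2 of 7 and 12.5%. Without the block that factor was Cdx1, at 0.88 ± 0.32 on the log2 scale (SE, adjusted p = 0.366 in limma). Klf5 differed by 0.62 ± 0.30, Cdx2 by 0.53 ± 0.33, Klf4 by 0.50 ± 0.33, Hnf4g by 0.34 ± 0.27, Hnf4a by 0.06 ± 0.32 and Elf3 by -0.39 ± 0.28 (SE), with limma adjusted p of 0.642 or more. For jejunum against duodenum 0 of 7 passed in limma (0% of all genes, 0.0677% with the block), and an unadjusted p under 0.05 was found for 0 of 7 and for 2.9% of all genes. With the block it was found for 3 of 7, namely Hnf4g, Klf5 and Elf3, and for 6.23% of all genes. For ileum against jejunum 0 of 7 passed (0.0423% of all genes, 0.271% with the block), and an unadjusted p under 0.05 for 1 of 7, again Cdx1, and for 4.38% of all genes (1 of 7 and 7.5% with the block). Limma-voom called 0 of 7 in both.

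**Figure D5:**
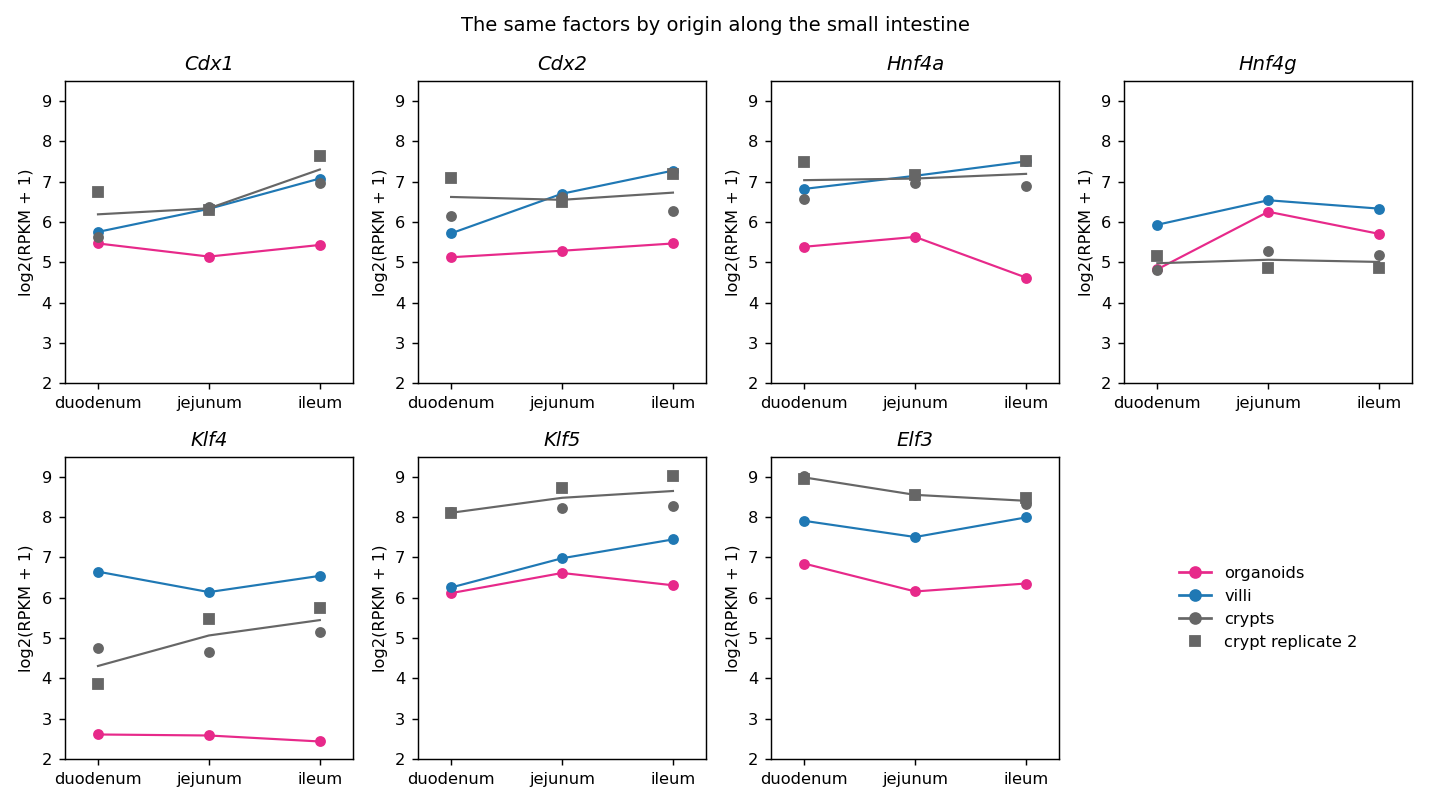
Log2(RPKM + 1) of the 7 genes (y axis) by origin for organoids, villi and crypts. Points are libraries, squares are crypt replicate 2, and lines join the single libraries of organoids and villi and the means of the crypt pairs. Cdx1 is highest in ileum for villi and crypts and flat in organoids, and Elf3 in crypts is highest in duodenum.

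Crypts are the tissue with replicates at each origin. Cdx1 had 124 and 199 RPKM in ileal crypts, against 48.8 and 106 RPKM in duodenal crypts. Klf4 had 34.4 and 52.6 RPKM in ileal crypts, against 25.8 and 13.6 RPKM in duodenal crypts. Elf3 had 322 and 355 RPKM in ileal crypts, against 522 and 491 RPKM in duodenal crypts. With Klf5, these were the 4 of 7 factors whose ileal and duodenal crypt libraries did not overlap, a property of 22.4% of all genes tested. In limma on the crypt libraries the log2 fold changes were 1.11 ± 0.52 for Cdx1, 1.14 ± 0.50 for Klf4, 0.54 ± 0.52 for Klf5 and -0.58 ± 0.47 for Elf3 (SE), and 0 of 7 passed (adjusted p = 0.999988 for each of these). Of all genes 0.036% passed, 0.333% with the block, where again 0 of 7 passed. Without the block an unadjusted p under 0.05 was found for 0 of 7 and for 4.09% of all genes, and limma-voom called 0 of 7. With the block it was found for Cdx1 and Klf4 (unadjusted p = 0.0147 and 0.0385 in limma), 2 of 7, and for 9.17% of all genes.

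The ileum-duodenum difference of Cdx1 in villi minus that in crypts was 0.21 ± 0.89, and in organoids minus crypts it was -1.15 ± 0.89, on the log2 scale (SE, limma adjusted p = 1 for both). None of the 7 passed in a test of whether the ileum-duodenum difference of villi or of organoids differs from that of crypts. In limma these tests called 0% of 12740 genes, also with the block, and limma-voom called 0 of the 7. An unadjusted p under 0.05 was found for 0 of the 7 in both, and for 3.63% of all genes for villi and 2.61% for organoids. They assume that single libraries vary like the crypt pairs. Cdx2 in villi was at 51.7, 103 and 154 RPKM in duodenum, jejunum and ileum, and its ileum-duodenum difference was 1.45 ± 0.89 greater in villi than in crypts (SE, limma adjusted p = 1).

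Other transcription factors and known target genes of the 7 were followed as lists. Of 21 other enterocyte factors tested, 8 were higher and 4 lower in villi against crypts, 2 higher and 10 lower in organoids against crypts, and 3 higher and 12 lower in organoids against villi (5 and 13 with the block). The list was called at 57.1%, 57.1% and 71.4% in these comparisons, where all genes were called at 52.8%, 47.4% and 61.6%. Its median log2 fold changes were 0.18, -0.76 and -0.95. Creb3l3, which activates apolipoprotein genes, had a median of 11.5 RPKM in organoids, 337 in villi and 23.0 in crypts. It rose by 3.95 in villi against crypts (limma adjusted p = 0.00115). Esrra, a nuclear receptor for mitochondrial genes, had medians of 7.27, 121 and 35.1 RPKM in these tissues. It was 1.82 higher in villi than in crypts (limma adjusted p = 0.000302) and fell by 2.05 in organoids against crypts (limma adjusted p = 0.000195). Ppargc1a, a coactivator of Esrra, rose by 1.33 in villi (limma adjusted p = 0.000726), and the repressor Prdm1, with medians of 1.22 RPKM in villi and 0.164 in crypts, by 0.98 (limma adjusted p = 4.73e-05).

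Factors of stem and secretory cells mostly fell in villi. Of 12 tested, 0 were higher and 9 lower in villi against crypts, 2 higher and 4 lower in organoids against crypts, and 6 higher and 0 lower in organoids against villi. So 75%, 50% and 50% of the list were called, against 52.8%, 47.4% and 61.6% of all genes. The medians were -0.91, -0.34 and 0.82. Sox9, a factor of progenitor and Paneth cells, fell by 3.18 in villi against crypts (limma adjusted p = 1.16e-06). Ascl2, a stem cell factor, fell by 3.61 (adjusted p = 1.28e-06), the Notch effector Hes1 by 2.68 (adjusted p = 7.63e-06) and Myc by 2.76 (adjusted p = 1.23e-05). Of these 4 only Myc was higher in organoids than in crypts, by 0.88 (limma adjusted p = 0.0245), and Sox9 was lower, at -0.98 (limma adjusted p = 0.00234). Under TMM factors and quantile normalisation 7 and 6 of the 12 were lower in villi, and 1 was lower in organoids against villi.

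Of 12 tested Klf genes other than Klf4 and Klf5, 2 were higher and 6 lower in villi against crypts, 0 higher and 6 lower in organoids against crypts, and 4 higher and 6 lower in organoids against villi. That is 66.7%, 50% and 83.3% of the list, where 52.8%, 47.4% and 61.6% of all genes were called. The medians were -0.85, -0.52 and -0.42. Klf9 had medians of 2.84 RPKM in organoids, 6.40 in villi and 34.0 in crypts. Its log2 fold change was -2.26 in villi and -3.33 in organoids against crypts (limma adjusted p = 2.98e-05 and 7.45e-06). Klf13 had medians of 1.65, 6.64 and 32.1 RPKM and differed by -2.08 and -3.57 (limma adjusted p = 0.000147 and 9.49e-06). Klf7 fell by 1.58 and Klf10 by 1.52 in villi against crypts (limma adjusted p = 0.000199 and 0.000215). Klf10 was 0.26 apart in organoids against crypts (limma adjusted p = 0.393).

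Relatives of Elf3 in the Ets family were divided. Of 17 tested, 5 were higher and 6 lower in villi against crypts (8 and 6 under TMM factors), 1 higher and 2 lower in organoids against crypts, and 5 higher and 5 lower in organoids against villi. Of all genes 52.8%, 47.4% and 61.6% were called, and of this list 64.7%, 17.6% and 58.8%. Its medians were 0.25, 0.02 and 0.11, and the last turned to -0.15 under TMM factors. Ehf, an epithelial Ets factor close to Elf3, had medians of 31.9 RPKM in organoids, 2.58 in villi and 25.8 in crypts. It fell by 2.72 in villi against crypts (limma adjusted p = 2.61e-05) and was 3.13 higher in organoids than in villi (limma adjusted p = 1.75e-05). Etv6 fell by 2.29 and Etv4 by 1.40 in villi against crypts, and Elf4 rose by 1.61 (limma adjusted p = 1.23e-05, 0.000182 and 0.000469). In organoids against crypts, Elf3 fell by 2.20 while Ehf stood at 0.41 (limma adjusted p = 0.313).

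Known targets of Hnf4 proteins were nearly all higher in villi. Of 20 tested, 19 were higher and 0 lower in villi against crypts, with a median log2 fold change of 3.23, where the median of all genes was -0.19. In organoids against crypts 2 were higher and 7 lower, with a median of -0.92, and in organoids against villi 0 were higher and 18 lower, with a median of -4.31. The shares called were 95%, 45% and 90% of the list and 52.8%, 47.4% and 61.6% of all genes. Npc1l1, which takes up cholesterol, had medians of 9.12 RPKM in organoids, 341 in villi and 19.0 in crypts. It rose by 4.14 in villi against crypts (limma adjusted p = 0.000118). Apoa4 rose by 6.21, Apob by 3.60 and Cdhr2, listed as BC040758 and a cadherin of the brush border, by 3.57 (limma adjusted p = 0.000479, 0.000346 and 0.000150). Apob, which carries chylomicron fat, was the one of these 4 that was higher in organoids than in crypts, by 2.005 (limma adjusted p = 0.0158). The list overlaps with that of mature enterocyte genes, and its members were also higher in crypt replicate 2, by medians of 2.69, 2.21 and 2.296 in duodenum, jejunum and ileum.

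Of 15 tested Cdx target genes, 8 were higher and 1 lower in villi against crypts, 3 higher and 4 lower in organoids against crypts, and 3 higher and 9 lower in organoids against villi. Cdx1 is itself on this list, which overlaps with those of mature enterocyte genes and of Hnf4 targets. Its genes were also higher in crypt replicate 2, by medians of 1.96, 0.88 and 1.17 in duodenum, jejunum and ileum. The list was called at 60%, 46.7% and 80%, close to the 52.8% and 47.4% of all genes in the comparisons with crypts and against 61.6% in the last. The medians were 1.16, -0.31 and -1.13. Lct, the lactase of the brush border, had medians of 0.306 RPKM in organoids, 428 in villi and 5.63 in crypts and rose by 5.04 in villi against crypts (limma adjusted p = 0.000413). Heph, an iron oxidase, rose by 2.36 and Vil1, the microvillus protein villin, by 2.32 (limma adjusted p = 0.000334 and 0.00382). The one that fell in villi was Cldn2, a tight junction claudin, by 2.93 (limma adjusted p = 0.00238). Its medians were 93.1 RPKM in organoids, 2.88 in villi and 54.9 in crypts. Villus libraries of Cldn2 ranged between 0.753 and 43.2 RPKM and crypt libraries between 21.9 and 86.4 RPKM, so they overlapped. Vil1 fell by 2.17 in organoids against crypts (limma adjusted p = 0.00670).

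Of 11 tested targets of Klf4, Klf5 and Elf3, 4 were higher and 3 lower in villi against crypts, 3 higher and 3 lower in organoids against crypts (4 and 5 with the block), and 4 higher and 4 lower in organoids against villi. With 63.6%, 54.5% and 72.7% called, the list was near the 52.8%, 47.4% and 61.6% of all genes. Its medians were -0.09, -0.65 and 0.88, and the first turned to 0.22 under TMM factors. The cyclins Ccnd1 and Ccnb1 differed by -3.12 and -1.85 in villi against crypts (limma adjusted p = 6.15e-06 and 0.000161). The keratin Krt18 differed by -1.85 in villi and by 1.24 in organoids against crypts (limma adjusted p = 0.00116 and 0.0153), the second of these not under quantile normalisation (0.34, limma adjusted p = 0.569). Cldn7, a claudin, rose by 1.55 in villi against crypts (limma adjusted p = 0.00385).

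Among the 7 factors, levels over the 12 libraries followed each other closely for some pairs. These correlations of log2(RPKM + 1) describe points that share tissue, origin and preparation. Pearson's r was 0.88 for Cdx1 with Cdx2, 0.88 for Cdx2 with Hnf4a, 0.81 for Hnf4a with Elf3, 0.80 for Hnf4a with Klf4 and 0.80 for Klf5 with Elf3. Hnf4g stood apart, with r between -0.54 with Klf5 and 0.20 with Klf4, and -0.05 with Hnf4a.

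For each factor the 3 most similar of 4920 other genes with a mean log2(RPKM + 1) of at least 3 were looked up by the same r over 12 libraries. Among the nearest were Krt8 and Mgat4b for Cdx1 (r = 0.95 and 0.94), and the nearest to Cdx2 were Fblim1, Abat and Cpt1a (r = 0.95, 0.95 and 0.94). Hnf4a was matched most closely by Hs6st1, Ube3b and 4121402D02Rik (r = 0.98 for each), and Hnf4g by Net1, B4galt6 and Pip5k1b (r = 0.91, 0.89 and 0.89). Klf4 was closest to C130074G19Rik, Plec1 and Galnt6 (r = 0.98 for each). Galnt6, an enzyme of mucin-type glycosylation, ranged between 5.74 and 8.43 RPKM in organoids, 91.4 and 98.4 in villi and 24.6 and 48.2 in crypts, close to the Klf4 values themselves. Klf5 was closest to Carm1, Wiz and Pmm2 (r = 0.99, 0.97 and 0.97) and Elf3 to 4931406I20Rik, B4galnt1 and Ranbp3 (r = 0.98, 0.97 and 0.97). The share of the 4920 genes with r over 0.8 was 14.5% for Hnf4a and 13.1% for Klf4 but 0.996% for Hnf4g, so the Hnf4g pattern was the least common of the 7.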

How the data were processed

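Per the labels' protocols, poly(A) RNA was sequenced as 50-base reads on a SOLiD 4. Per the submitters' processing notes, BWA and mm9 were used. The sources used here give no versions, gene models or counting rules. The authors deposited RPKM for each transcript of a library, per the file headers. The transcript with the longest exons stood for each symbol, and 223 of 229 list entries were matched. At least 99.9671% of the values of each library were whole reads within 0.02 of a read.

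RPKM was analysed as log2(RPKM + 1), which understates changes of low genes, in R 4.3.3 with limma 3.58.1 and a mean-variance trend over all genes. A gene was kept by its share of the reads in genes, at least that of 10 reads at the median depth. It needed this share in 3 libraries (tissue and origin, 11825 genes), 2 (crypts, 11123 genes) or 1 (means of 9 groups, 12740 genes), and 15 reads in all. The fit was checked on simulated reads of independent libraries with few genes changed. That check does not cover paired crypt libraries or wide shifts between tissues. Tissue and preparation cannot be told apart.

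Crypt libraries with equal numbers deviated together across genes (r = 0.42, 0.51 and 0.79 for the 3 pairs of origins). The numbers were therefore taken to pair samples, and a replicate block was fitted beside the main model. Named genes were the 7 factors, the 3 most correlated genes of each and up to 4 genes of each factor or target list with the smallest p in villi against crypts. One gene that this rule names is not reported here. The 7 factors, lists and tests were chosen with earlier results of these data known.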

Additional observations from a re-analysis of the deposited data

How the results depend on the processing

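Alternatives were pseudocounts of 0.1 and 5, no filter, TMM factors, quantile normalisation, limma-voom on recovered reads, the replicate block, the transcript with the highest mean, each crypt replicate alone and each library left out. The planned count models were not run, since the deposited values are RPKM. The block changed no call of the 7 factors other than that of Hnf4g in organoids against villi (-0.67, adjusted p = 0.0423). With 1 library left out, members past the threshold numbered 3 to 4 of 7 in villi against crypts, 5 to 7 in organoids against crypts, 3 to 6 in organoids against villi and 0 in every origin comparison. Counts over all genes moved as well, between 4496 and 6648, 3478 and 6376, and 6159 and 7749 in the 3 tissue comparisons. Between 11684 and 11796 genes were tested in these fits. Past the threshold by ratio were 3 of 9, but 0 with crypt replicate 1 alone, with crypt replicate 2 alone and with any library left out, where the smallest possible p is higher in all or some of the 9 tests adjusted together. Signs turned only in values that had not passed. In villi against crypts Cdx1 turned to 0.0857 (TMM) and 0.0607 (crypt replicate 1 alone), and Cdx2 to 0.24 and 0.22 in the same settings and to between -0.36 and 0.32 with a library left out. Hnf4a there turned to -0.24 (quantile) and -0.24 (replicate 2 alone) and ranged from -0.19 to 0.23. In ileum against duodenum Hnf4a turned to -0.0318 (TMM) and -0.0241 (replicate 2 alone) and ranged from -0.12 to 0.35. In ileal against duodenal crypts leaving out a library gave -0.35 to 0.57 for Cdx2, -0.30 to 0.61 for Hnf4a and -0.14 to 0.20 for Hnf4g. The Klf4 to Klf5 ratio of organoids against crypts turned to 0.18 with a pseudocount of 5, and that of Cdx1 to Cdx2 ranged from -0.0681 to 0.22. The causes were not tested. Counts of all genes in the origin comparisons moved by over 1.5 times: ileum against duodenum called 72 genes, but 302 with the block, 132 with limma-voom, 113 with a pseudocount of 0.1, 40 with 5, 17 without the filter, 120 or 156 with crypt replicate 1 or 2 alone and 39 to 99 with a library left out. Ileal against duodenal crypts called 4 genes, and 37 with the block. Each factor had at least 160 reads in every library, and single organoid and villus libraries per origin limit what can be said of origins.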
